A study of Mus musculus with 10 samples.

Results

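The nuclear genes for subunits of respiratory chain complexes I to IV were examined in the hippocampus of Dp1Yey mice. Members were taken by gene symbol alone, as every gene whose symbol follows the Nduf, Sdh, Uqcr or Cox nomenclature of these subunits and that was measured by a probe set (the group of array probes summed to 1 value) with no other symbol. Ndufv3 was left out by this rule. This gave 63 of the 19938 genes measured: 34 for complex I, 4 for complex II, 8 for complex III and 17 for complex IV. Of these, 10 had several probe sets, and the one of highest mean signal stood for the gene. Ndufb4 and Cox7c were carried only by probe sets that also name another gene and gave no value. By their position in the RefSeq annotation, 0 of the 63 genes lie on mouse chromosome 16 (Mmu16), so no member is itself inside the duplicated segment.

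The respiratory chain passes electrons from NADH and succinate to oxygen in the inner mitochondrial membrane. Complex I oxidises NADH in its N module, hands the electrons to ubiquinone in its Q module and pumps protons through its membrane arm. Complex II is the citric acid cycle enzyme succinate dehydrogenase, complex III transfers electrons from ubiquinol to cytochrome c, and complex IV reduces oxygen to water. The proton gradient so made drives ATP synthase, on which the ion pumping of active neurons depends. The catalytic centres of complex IV and the proton channels of complex I are encoded in mitochondrial DNA. The genes described here are nuclear and encode many, though not all, of the other subunits. Several complex IV subunits exist as widely expressed and as tissue-restricted isoforms.

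The 5 Dp1Yey mice carried Dp(16Lipi-Zbtb21)1Yey, a duplication of the Mmu16 segment from Lipi to Zbtb21 that gives its genes an extra copy, and the 5 control mice were littermates without it. All 10 mice were males of 16 weeks, labelled as biological replicates, and the labels name a C57BL/6N background where the study's methods name B6J. RNA of the whole hippocampus of both sides was hybridised to 1 Affymetrix Mouse Gene ST array per mouse. Values are deposited log2 values after robust multi-array average (RMA), so a difference of 1 is a doubling.

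A mean log2 signal of 5.451, the 90th percentile of 1015 olfactory receptor genes, served as the floor, and 62 of the 63 members lay above it. The mean of these olfactory receptor genes was 4.766 to 4.791 in Dp1Yey and 4.796 to 4.855 in control arrays. The groups did not overlap (p = 0.00794, exact permutation test over 252 assignments of arrays to groups). Array medians ranged from 6.31 to 6.37 in Dp1Yey and from 6.35 to 6.44 in control mice, and the interquartile range of the array, the width of its distribution of values, ranged from 3.467 to 3.535 in Dp1Yey and from 3.404 to 3.512 in control mice. Control replicate 2 had the highest median and the lowest interquartile range, and members' differences that moved by over 1.5 times without it are given both ways. Markers of hippocampal neurons, interneurons, astrocytes, microglia, endothelium and oligodendrocytes were above the floor without exception, and 0 of them were called by limma at the threshold used here. The mean of 8 markers of hippocampal neurons ranged from 11.54 to 11.62 in Dp1Yey and from 11.43 to 11.53 in control mice, with 4 of 8 above control. The groups did not overlap for Wfs1 (0.419, adjusted p = 0.0533), Snap25 (0.052, adjusted p = 0.321) and the astrocyte marker Gfap (0.102, adjusted p = 0.179, limma). Of the 5 astrocyte markers, 3 lay above control, with -0.046 for Aqp4 and -0.054 for Gja1. Interneuron markers lay above control in 4 of 4, with 0.00047, 0.0075, 0.042 and 0.125 for Gad1, Gad2, Sst and Pvalb. The interneuron means overlapped, at 10.6 to 10.72 in Dp1Yey and 10.49 to 10.69 in control mice. The 4 choroid plexus markers had 0 above control and means from 7.48 to 8.48 in Dp1Yey and from 7.80 to 9.64 in control mice. Among them Ttr, Folr1 and Kl had differences of -1.565, -0.617 and -0.582 (adjusted p = 0.244, 0.137 and 0.151, limma). Clic6, which lies in the duplicated segment, had a difference of -0.464 (adjusted p = 0.434, limma). The blood marker Alas2 had a difference of 0.560 (adjusted p = 0.165, limma). The part of these marker differences in the small shifts described here was not tested.

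Promoters of 50 of the 63 members were matched in the RefSeq promoter table of GRCm38.p6, as windows of 250 bases before to 50 bases after the annotated start. They were searched on both strands for short motifs of 3 factors with known roles at respiratory genes: CCGGAAG for GABPA, whose own gene lies in the duplicated segment, GCATGCGC for NRF1 and AAGATGGC for YY1. The 4 windows printed here belong to members described in the results that carry 1 of these motifs. Each is written 5′ to 3′ on the strand of its gene, and capitals mark the motif or its reverse complement.
Ndufa3: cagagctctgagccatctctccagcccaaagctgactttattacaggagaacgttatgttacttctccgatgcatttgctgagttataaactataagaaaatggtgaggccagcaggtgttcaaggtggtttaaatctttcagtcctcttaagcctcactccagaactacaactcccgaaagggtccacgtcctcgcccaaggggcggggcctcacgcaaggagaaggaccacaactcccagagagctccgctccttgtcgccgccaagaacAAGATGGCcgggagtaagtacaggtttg
Ndufa6: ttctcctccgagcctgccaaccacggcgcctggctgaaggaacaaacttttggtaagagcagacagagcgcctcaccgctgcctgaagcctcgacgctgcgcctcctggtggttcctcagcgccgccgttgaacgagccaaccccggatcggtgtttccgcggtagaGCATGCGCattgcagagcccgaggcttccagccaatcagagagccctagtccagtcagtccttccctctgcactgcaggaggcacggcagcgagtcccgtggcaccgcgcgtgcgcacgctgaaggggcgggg
Sdhd: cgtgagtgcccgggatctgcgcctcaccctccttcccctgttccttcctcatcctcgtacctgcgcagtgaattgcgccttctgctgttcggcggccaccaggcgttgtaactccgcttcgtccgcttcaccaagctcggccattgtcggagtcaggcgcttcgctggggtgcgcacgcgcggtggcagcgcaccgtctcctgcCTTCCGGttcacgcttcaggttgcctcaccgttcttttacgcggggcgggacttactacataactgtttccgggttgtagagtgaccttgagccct
Cox6b1: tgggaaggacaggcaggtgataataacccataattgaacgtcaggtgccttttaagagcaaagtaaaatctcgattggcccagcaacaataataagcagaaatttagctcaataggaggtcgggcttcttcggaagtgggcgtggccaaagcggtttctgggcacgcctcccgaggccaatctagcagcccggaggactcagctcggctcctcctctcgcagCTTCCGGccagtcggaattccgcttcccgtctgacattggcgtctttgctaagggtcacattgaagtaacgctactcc

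The window of Ndufa3 is chr7:3617123-3617422 on the forward strand, with the YY1 motif beginning at position 23 from the start site. Those of Ndufa6 (chr15:82354242-82354541), Sdhd (chr9:50603800-50604099) and Cox6b1 (chr7:30626065-30626364) lie on the reverse strand, with the NRF1 motif at -83 in Ndufa6 and the GABPA motif at -46 in Sdhd and -28 in Cox6b1. The GABPA motif was held by 11 of the 50 members (22%), against 9.93% of 27025 genes and 8.86% of 32851 windows. The NRF1 motif was held by 7 members (14%), against 3.05% of genes and 2.71% of windows. The YY1 motif was held by 7 members (14%), against 3.19% of genes and 2.75% of windows. These 7 belonged to complex I, which made up 30 of the 50 matched members. A match to these letters describes the sequence and does not show a bound site.

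No member of complexes I to IV differed between Dp1Yey and control mice at an adjusted p under 0.05 (limma, Benjamini-Hochberg over 19938 genes). The count was 0 of 63 higher and 0 of 63 lower in Dp1Yey, where 0.687% of all genes were called higher and 0.110% lower, and the lowest adjusted p was 0.119, for Cox8c. At an unadjusted p under 0.05, 7 members lay higher (8.75% of all genes) and 2 lower (10.8% of all genes). The groups did not overlap for 2 members higher in Dp1Yey (2.40% of all genes) and 1 lower (2.46% of all genes). A rewritten form of the rank statistic used in the study also called 0 of 63 in either direction, where it called 2.46% of all genes higher and 0.993% lower. In these bulk samples, fewer cells of a type and less RNA per cell cannot be told apart.

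Without a called gene, the differences were small and mostly of one sign. The log2 difference, Dp1Yey minus control, was above 0 in 51 of 63 members (81.0%), against 42.1% of all genes and 46.3% of those above the floor. The share of all genes above control differed with signal and is given by signal further on. The median difference was 0.054 over the members, -0.015 over all genes and -0.0082 over all genes above the floor. The differences ranged from a fold of 0.848 to 1.13, and the 95% interval of 55 members lay within 1.2-fold either way. Ndufv3, an N module subunit outside the list, had 8.58, 8.48, 8.46, 8.58 and 8.53 in Dp1Yey and 8.63, 8.41, 8.48, 8.55 and 8.40 in control mice, a difference of 0.033 (adjusted p = 0.721, limma), or 0.012 without control replicate 2.

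The shift was smaller without control replicate 2. That mouse had the lowest value of the 5 controls in 36 of 63 members (57.1%), against 19.0% of all genes. Without it, 44 of 63 members lay above the control mean and the median difference was 0.036, with -0.0068 over all genes. The difference was nearer to 0 without that array in 46 members, and 7 of the 51 members above control turned below 0. The interquartile range of the array, lowest in the same mouse, also moved with the result: with it as a covariate, 38 of 63 members lay above control and the median was 0.011. The interquartile range averaged 3.515 in Dp1Yey and 3.461 in control mice (p = 0.0556, exact permutation test), so the covariate can also take up a genotype difference. With it, the calls over all genes fell from 137 higher and 22 lower to 44 and 2. The difference of Gabpa, a gene of the duplicated segment, fell from 0.564 to 0.466. The part of the interquartile range in the result was not otherwise tested.

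**Figure D1:**
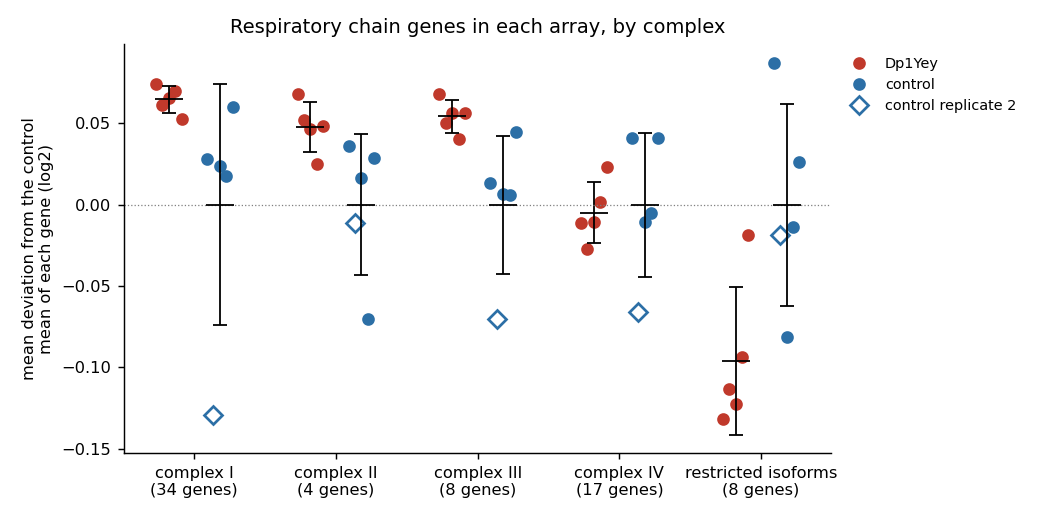
Mean deviation of each complex's genes from their control means (log2, vertical axis) in each of the 5 Dp1Yey and 5 control arrays, with the mean and SD as bars. Control replicate 2 (open diamond) lies at -0.129 for complex I, below the other controls (0.0178 to 0.0599) and the Dp1Yey arrays (0.0529 to 0.0743). The restricted isoforms are 7 complex IV genes, also counted in complex IV, and Ndufa4l2, also counted in complex I.

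Most complex I genes lay slightly above control. Of the 34 genes, 31 lay above the control mean and the median difference was 0.068, which was 0.040 with 26 of 34 above control when control replicate 2 was left out, and 0.0088 with 21 of 34 above control when the interquartile range entered the fit. The mean level over the 34 genes was 10.04, 10.02, 10.03, 10.03 and 10.01 in Dp1Yey replicates 1 to 5 and 9.99, 9.83, 9.99, 9.98 and 10.02 in control replicates 1 to 5. Control replicate 2 stood apart from the other 9 arrays, and control replicate 5 lay within the Dp1Yey range. In control replicate 2, 4 of the 34 genes exceeded their control mean, against 16 to 29 in the other control arrays. The median SD among replicates was 0.0436 in Dp1Yey and 0.0917 in control mice, and 0.0626 in the controls without replicate 2. Over all genes it was likewise smaller in Dp1Yey, at 0.0582 against 0.0819 in control mice, and 0.0665 in the controls without replicate 2.

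By module, the membrane arm showed the highest median difference within complex I, with 17 of 18 genes above control and a median of 0.091, or 15 of 18 and 0.050 without control replicate 2, and 12 of 18 and 0.014 when the interquartile range entered the fit. The Q module had 6 of 6 above control at a median of 0.045, or 6 of 6 at 0.025 without that array and 3 of 6 at 0.0027 with the interquartile range in the fit. The N module had 7 of 8 above control at a median of 0.053, or 4 of 8 at 0.021 without it, and 4 of 8 at -0.0017 with the interquartile range in the fit. The differences between modules were not tested.

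The 4 complex I genes with an unadjusted p under 0.05 (limma), all higher in Dp1Yey, encode accessory subunits of the membrane arm, which holds 18 of the 34 genes. At that p, 8.75% of all genes lay higher. The complex I count was 2 higher and 1 lower without control replicate 2. With the interquartile range in the fit it was 0 higher and 1 lower. Ndufb3 (chromosome 1) had log2 values of 8.03, 8.04, 8.09, 8.13 and 7.88 in Dp1Yey and 7.85, 7.75, 7.93, 7.997 and 7.92 in control mice. Of the Dp1Yey mice, 4 lay above every control, and replicate 5 fell among the controls. The difference was 0.143 ± 0.055 (SE, n = 5 each), a fold of 1.10 (adjusted p = 0.193, limma), and 0.040 with the interquartile range in the fit. Ndufa3, whose promoter carries the YY1 motif shown earlier, had 10.68, 10.59, 10.60, 10.60 and 10.62 in Dp1Yey and 10.57, 10.32, 10.51, 10.60 and 10.45 in control mice, a difference of 0.128 ± 0.050 (SE). The groups overlapped through control replicate 4 (adjusted p = 0.201, limma), and the difference was 0.085 without control replicate 2 and 0.090 with the interquartile range in the fit.

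Ndufb10 had 8.41, 8.42, 8.38, 8.38 and 8.34 in Dp1Yey and 8.18, 8.24, 8.31, 8.34 and 8.37 in control mice, so that 4 Dp1Yey values exceeded all controls. The difference was 0.098 ± 0.040 (SE; adjusted p = 0.211, limma), and 0.031 with the interquartile range in the fit. Ndufs5, a subunit on the intermembrane space side of the arm, had 9.03, 9.17, 9.01, 9.12 and 8.98 in Dp1Yey and 8.79, 8.99, 8.85, 8.87 and 9.12 in control mice. Control replicate 5 was the one control among the highest Dp1Yey values, and the difference was 0.139 ± 0.062 (SE; adjusted p = 0.243, limma). Unlike that of Ndufb3, Ndufa3 and Ndufb10, its difference did not shrink without control replicate 2, at 0.156, while it was 0.078 with the interquartile range in the fit.

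The numerically largest complex I difference belonged to Ndufa6, a Q module subunit named after its values were seen. It had 9.78, 9.61, 9.72, 9.66 and 9.74 in Dp1Yey and 9.61, 9.03, 9.64, 9.69 and 9.66 in control mice. The other controls lay within the Dp1Yey range or close to it, and control replicate 2 lay far below. The difference of 0.177 ± 0.107 (SE; adjusted p = 0.365, limma) was 0.053 without that array and -0.006 once the interquartile range entered the fit.

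Other complex I genes of small p or high signal had smaller differences. Ndufc2, a membrane arm subunit, had values of 12.68 to 12.75 in Dp1Yey and 12.61 to 12.70 in control mice, a difference of 0.059. Ndufv2, an iron-sulfur subunit of the N module, had 11.74 to 11.83 in Dp1Yey and 11.64 to 11.79 in control mice (0.068). Ndufs7, which holds the cluster that passes electrons to ubiquinone, had 12.24 to 12.32 in Dp1Yey and 12.16 to 12.30 in control mice (0.053). Each overlapped between groups, with adjusted p-values of 0.308, 0.310 and 0.410 (limma). Ndufb5, of the membrane arm, had a difference of 0.091 (adjusted p = 0.269), and Ndufa4, which carries a complex I name but is now assigned to complex IV, a difference of 0.072, or 0.022 without control replicate 2 (adjusted p = 0.501). The genes below control were Ndufb2, a membrane arm subunit (-0.047, and -0.101 without control replicate 2), Ndufs1, the large iron-sulfur subunit of the N module (-0.0053, and -0.020 without it), and Ndufa4l2, described with the restricted isoforms. The 31 genes above control had differences from 0.0011, for Ndufb11 (-0.026 without control replicate 2), to that of Ndufa6, with 0.161 for Ndufb6 (0.078 without it). Ndufb2, Ndufs1, Ndufb11 and Ndufb6 were likewise named after their values were seen.

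**Figure D2:**
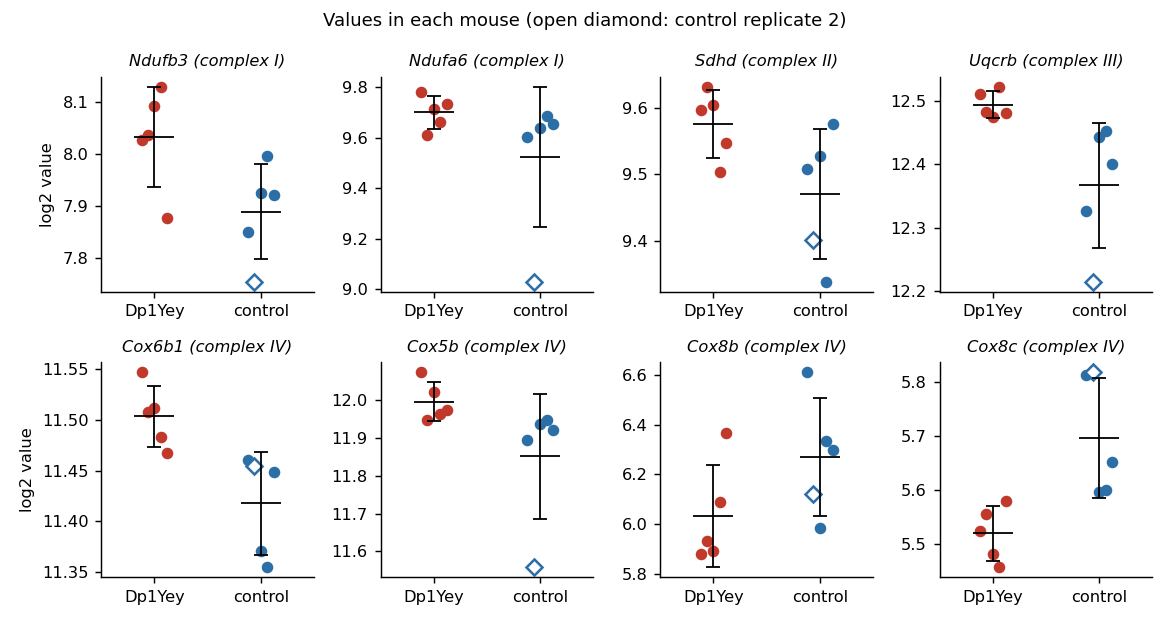
Log2 value of 8 member genes in each mouse (vertical axes differ between panels and do not start at 0), with the mean and SD of the 5 Dp1Yey and 5 control mice as bars. Control replicate 2 (open diamond) is the lowest of the 10 values of Ndufb3, Ndufa6, Uqcrb and Cox5b, and the groups do not overlap for Uqcrb, Cox6b1 and Cox8c.

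In complex II, 3 of 4 genes lay above control, all but Sdha. Sdhd, a membrane anchor, had 9.60, 9.63, 9.60, 9.50 and 9.55 in Dp1Yey and 9.51, 9.40, 9.53, 9.34 and 9.58 in control mice. The difference was 0.106 ± 0.048 (SE, n = 5 each; adjusted p = 0.245, limma), 0.089 without control replicate 2 and 0.041 with the interquartile range in the fit. The Dp1Yey values overlapped the upper 3 controls, and the lowest control here was replicate 4, not replicate 2. Sdhc, the other anchor, had a difference of 0.088 ± 0.044 (SE; adjusted p = 0.288) and Sdhb, the iron-sulfur subunit, one of 0.042 (adjusted p = 0.453).

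Sdha, the flavoprotein that oxidises succinate, had 11.66, 11.67, 11.64, 11.63 and 11.66 in Dp1Yey and 11.67, 11.81, 11.69, 11.64 and 11.68 in control mice. Here control replicate 2 was the highest of the 10 arrays. The difference was -0.045 ± 0.035 (SE; adjusted p = 0.479, limma), -0.018 without that array and 0.0016 after centring the arrays on their medians. The median over the 4 genes was 0.065, and 0.055 without control replicate 2.

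In complex III, 7 of 8 genes lay above control with a median of 0.048, and 6 of 8 with a median of 0.049 without control replicate 2. Uqcrb, a subunit close to the ubiquinone site, had 12.51, 12.48, 12.47, 12.52 and 12.48 in Dp1Yey and 12.33, 12.21, 12.44, 12.45 and 12.40 in control mice. Every Dp1Yey value exceeded every control value. The difference was 0.127 ± 0.045 (SE, n = 5 each), a fold of 1.09 with a 95% interval of the log2 difference from 0.029 to 0.224 (adjusted p = 0.169, limma). It was 0.089 without control replicate 2 and 0.052 with the interquartile range in the fit.

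The other complex III genes had smaller differences than Uqcrb. Uqcrfs1, the Rieske iron-sulfur protein, had a difference of 0.064 (adjusted p = 0.387, limma), with 9.28, 9.15, 9.24, 9.25 and 9.26 in Dp1Yey and 9.10, 9.15, 9.23, 9.11 and 9.26 in control mice. The core proteins were split, with 0.058 for Uqcrc1 (0.032 without control replicate 2) and -0.016 for Uqcrc2 (adjusted p = 0.427 and 0.829), and Uqcrc2 turned to 0.031 after median centring. Uqcrh, the hinge protein that binds cytochrome c1, had 0.032 (adjusted p = 0.653). Uqcr10, a small accessory subunit, had 0.113, or 0.051 without control replicate 2 (adjusted p = 0.329). The remaining small subunits, Uqcr11 and Uqcrq, had 0.039 and 0.020, and Uqcrq turned to -0.015 without control replicate 2.

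Complex IV divided by isoform. Its 10 widely expressed subunits all lay above control, with a median difference of 0.055, or 9 of 10 at 0.037 without control replicate 2, 9 of 10 at 0.030 after quantile normalisation and 8 of 10 at 0.022 when the interquartile range entered the fit. Its 7 tissue-restricted isoforms all lay below, except that Cox7b2 turned above 0 after quantile normalisation or median centring, and it and Cox7a1 did so without control replicate 5. Over the 17 genes the median was 0.042, which became 0.022 without control replicate 2, 0.0050 when control replicates 1 and 2 were both left out, and -0.0093 once the interquartile range entered the fit.

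Among the widely expressed subunits, Cox6b1, which faces the intermembrane space where the monomers of the enzyme meet, had 11.55, 11.51, 11.51, 11.48 and 11.47 in Dp1Yey and 11.46, 11.45, 11.37, 11.35 and 11.45 in control mice. The groups did not overlap, although the nearest values differed little. The difference was 0.086 ± 0.034 (SE, n = 5 each), a fold of 1.06 (adjusted p = 0.201, limma). Unlike most members it did not shrink without control replicate 2 (0.095), and it was 0.086 with the interquartile range in the fit. Its promoter holds the GABPA motif shown earlier.

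Cox5b, a zinc-binding subunit on the matrix side, had 12.07, 11.95, 12.02, 11.96 and 11.97 in Dp1Yey and 11.89, 11.56, 11.94, 11.95 and 11.92 in control mice. Control replicate 2 lay far below the other controls. The difference of 0.144 ± 0.068 (SE; adjusted p = 0.265, limma) was 0.071 without it and 0.022 with the interquartile range in the fit. Cox6c, Cox7b and Cox8a, small subunits of the membrane part, had differences of 0.058, 0.050 and 0.024 (adjusted p = 0.343, 0.351 and 0.687), and Cox6c had 0.038 without control replicate 2. Cox7a2l, a factor of supercomplex formation that follows the same nomenclature, lay at 8.02 to 8.18 in Dp1Yey and 7.99 to 8.07 in control mice, a difference of 0.070. Cox4i1, Cox5a, Cox6a1 and Cox7a2, which complete the widely expressed set, had 0.053, 0.042, 0.049 and 0.070. Without control replicate 2, Cox4i1 turned below 0 (-0.020) and Cox7a2 had 0.024.

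The tissue-restricted isoforms had low signals. Together with Ndufa4l2, the paralogue of Ndufa4 known for its induction by hypoxia, 0 of 8 lay above control, with a median difference of -0.066, and -0.078 without control replicate 2. Quantile normalisation and median centring each turned 2 of the 8, Cox7b2 and Ndufa4l2, above 0. Cox8c, a testis isoform, had 5.52, 5.56, 5.48, 5.46 and 5.58 in Dp1Yey and 5.81, 5.82, 5.60, 5.60 and 5.65 in control mice. All Dp1Yey values were below all controls, at a difference of -0.176 ± 0.051 (SE, n = 5 each; adjusted p = 0.119, limma), close to the floor of 5.451. It was -0.084 with the interquartile range in the fit. The mean of the olfactory receptor genes that set this floor was likewise lower in every Dp1Yey array than in every control array. The part of that background difference in the low signals was not tested.

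Cox6b2, also a testis isoform, had 6.39, 6.27, 6.33, 6.46 and 6.46 in Dp1Yey and 6.62, 6.56, 6.47, 6.40 and 6.47 in control mice. The groups overlapped through control replicate 4, and the difference was -0.121 ± 0.051 (SE; adjusted p = 0.227, limma), or -0.057 with the interquartile range in the fit. Cox8b, a heart and skeletal muscle isoform, had 5.88, 5.93, 5.89, 6.09 and 6.37 in Dp1Yey and 6.61, 6.12, 5.99, 6.34 and 6.30 in control mice. Its replicates were the most spread of the restricted isoforms, and the difference of -0.238 ± 0.117 (SE; adjusted p = 0.280) was -0.15 without control replicate 1, the highest value, and -0.106 with the interquartile range in the fit. The other muscle isoforms, Cox6a2 and Cox7a1, had -0.070 and -0.052, Cox4i2, the lung isoform of subunit 4, had -0.062, and Cox7b2, a testis isoform below the floor, had -0.0087 (adjusted p = 0.454, 0.632, 0.340 and 0.885). Without control replicate 2, Cox7a1 had -0.081 and Cox7b2 -0.015. Ndufa4l2 had -0.040 (adjusted p = 0.738).

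**Figure D3:**
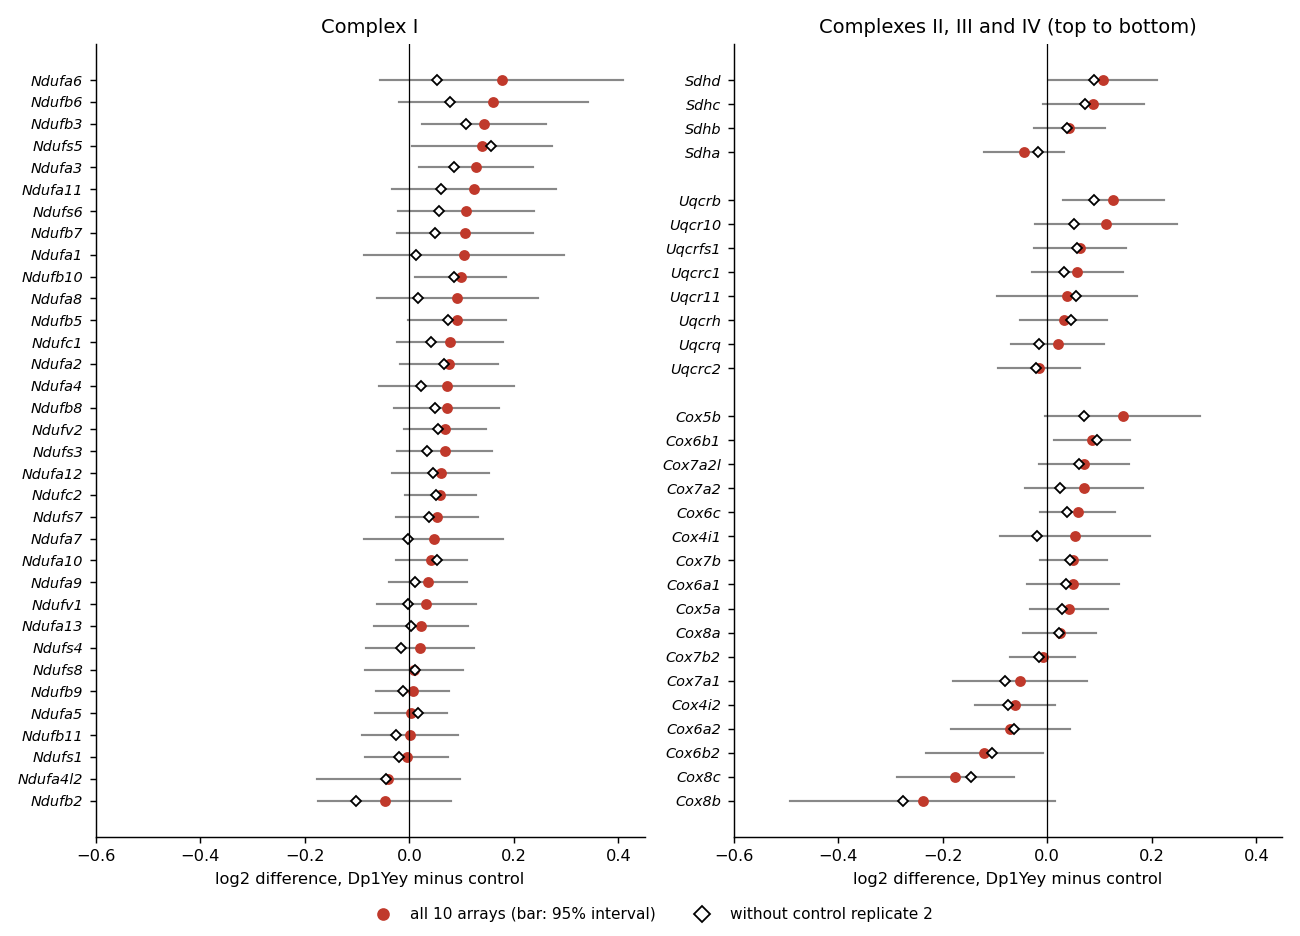
Log2 difference, Dp1Yey minus control, of the 63 genes (horizontal axis), each with its 95% interval over 5 against 5 mice (filled circle and bar) and without control replicate 2 (open diamond). Of the 34 complex I genes, 31 circles and 26 diamonds lie to the right of 0, and the 7 complex IV genes to the left of 0 are the tissue-restricted isoforms, of which Cox7b2 turns above 0 after quantile normalisation.

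The restricted isoforms were also the members of low signal, and the share of genes above control differed with signal over the whole array. Among all genes with a mean signal between 6 and 7, 30.9% lay above control, with a median difference of -0.049. The 5 members in that range had a median of -0.062. Of all genes between the floor and 6, 19.3% lay above control. At a signal of 12 or more, 68.6% of all genes lay above control at a median of 0.020, and the 6 members there had 0.056. At 8 to 9, 9 to 10, 10 to 11 and 11 to 12, 58.3%, 58.2%, 54.3% and 57.3% of all genes lay above control. Of the members in these ranges, 6 of 7, 8 of 9, 16 of 16 and 13 of 15 did so. Members between 8 and 12 lay above the median of all genes of like signal, with medians of 0.070 against 0.019 at 8 to 9, 0.076 against 0.017 at 9 to 10, 0.055 against 0.011 at 10 to 11 and 0.049 against 0.011 at 11 to 12. Without control replicate 2 these medians were 0.056, 0.051, 0.031 and 0.032 in members and 0.018, 0.016, 0.012 and 0.017 in all genes. Of 5 skeletal or cardiac muscle markers, 4 were above the floor and 2 above control, and their mean ranged from 6.44 to 6.55 in Dp1Yey and from 6.48 to 6.61 in control mice, and their part in the muscle isoforms was not tested.

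**Figure D4:**
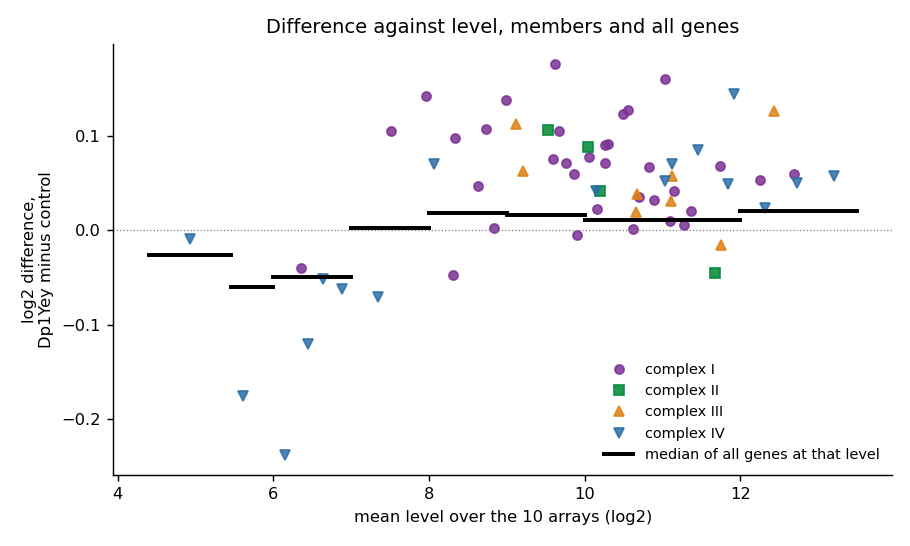
Log2 difference, Dp1Yey minus control (vertical axis), against the mean log2 signal over the 10 arrays (horizontal axis) for the 63 members, marked by complex, with the median of all genes in each range of signal as a black line. The black line lies at -0.049 between 6 and 7 and at 0.011 between 10 and 11, where the 16 members have a median of 0.055.

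The probe set of 5 members carries a number that falls among those of another chromosome than the gene's own (Cox6c, Cox7a2l, Cox7b, Ndufa11 and Ndufb11), so that signal from a related copy elsewhere cannot be told apart from that of the gene. With the brightest probe set numbered among those of the gene's own chromosome, the median of complex IV was 0.031 and that of complex I stayed at 0.068. The median of the 10 widely expressed complex IV subunits was 0.062, against 0.055 in the main comparison, and 0 members were called. On these probe sets the difference was larger for Cox7b (0.113), Cox7a2l (0.075) and Ndufb11 (0.019), and smaller for Cox6c (0.031) and Ndufa11 (0.086).

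Genes that act on the respiratory chain were counted beside it. Gabpa, the DNA-binding subunit of GABP on Mmu16, rose 1.48-fold, with 8.55, 8.70, 8.68, 8.63 and 8.56 in Dp1Yey and 7.99, 7.99, 8.31, 7.89 and 8.11 in control mice (adjusted p = 0.00151, limma). The groups were well separated. The 11 members with its motif had a median difference of 0.049, and the 39 without it 0.060. Nrip1, a corepressor of nuclear receptors on Mmu16, rose 1.18-fold (adjusted p = 0.0224, and 0.224 with the interquartile range in the fit), and none of the other 17 measured regulators passed, with 0.070 for Nrf1, 0.013 for Ppargc1a, -0.064 for Esrra and -0.051 for Yy1 (adjusted p = 0.293, 0.871, 0.378 and 0.520). Yy1 had -0.029 without control replicate 2.

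Assembly factors, which build the complexes and are no part of them, gave 0 calls in either direction by limma. After median centring, 1 of 6 complex III factors was called higher, where 294 of 19938 genes were. The rank statistic called higher Ndufaf1 (1 of 14 for complex I), Sdhaf4 (1 of 4 for complex II) and Cmc1 and Cmc2 (2 of 19 for complex IV). It called 2.46% of all genes higher. Cmc1 had a difference of 0.378, or 0.244 without control replicate 2 and 0.166 with the interquartile range in the fit. Above control lay 10 of 14 for complex I (median difference 0.049), 4 of 4 for complex II (0.106), 5 of 6 for complex III (0.120) and 15 of 19 for complex IV (0.069). Without control replicate 2 these medians were 0.048, 0.104, 0.072 and 0.041, and with the interquartile range in the fit they were 0.00085, 0.045, 0.050 and 0.012. Ndufaf1, an early complex I assembly factor, had a difference of 0.221 ± 0.058 (SE; adjusted p = 0.0943, limma). Sdhaf4, which acts on free Sdha, had 0.242 (adjusted p = 0.0939), and Uqcc3, a complex III factor, 0.146 (adjusted p = 0.0831). Each overlapped between the groups.

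Of 2 subunits encoded in mitochondrial DNA that were measured, COX2 had a difference of 0.063 and ND3 one of 0.064 (adjusted p = 0.448 and 0.479, limma). They were 0.040 and 0.036 without control replicate 2, and 0 of 2 lay above control without control replicates 1 and 2. Cytochromes and coenzyme Q genes lay above control in 5 of 14 and citric acid cycle genes in 6 of 13, with medians of -0.015 and -0.016 and 0 calls by limma. These signs turned without control replicate 2, at 8 of 14 and 8 of 13 with medians of 0.0034 and 0.0031, and after median centring, at 13 of 14 and 12 of 13. Of 15 ATP synthase genes, 10 lay above control, and the 2 that rose, Atp5o (1.43-fold, adjusted p = 0.000569) and Atp5j (1.26-fold, adjusted p = 0.000689), lie on Mmu16.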

How the data were processed

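The authors deposited log2 values per probe set after RMA (background correction, quantile normalisation across arrays and a summary per probe set), with RMA, limma and the mm10 build named in the submitters' processing notes. The set of arrays that shared 1 normalisation is not given in the labels or the methods, and arrays give no read depth. Of 35556 probe sets, 21789 named 1 symbol, and the brightest per gene left 19938 genes. RefSeq positions are those of GRCm38.p6. The 5 Dp1Yey and 5 control arrays were compared with limma 3.58.1 in R 4.3.3 (lmFit, eBayes, group as the only factor, two-sided, adjusted over all genes, threshold 0.05). Intervals are 95% intervals from the moderated errors. The code was tested on simulated data. The rank statistic averaged the ranks of fold changes over 25 pairs of arrays, trimmed by 0.25. The mean rank was turned into a normal probability with the mean and SD over all genes. Genes with a probability under 0.025 or above 0.975 were called.

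Members, lists and alternatives were chosen with earlier results of these data known. Named members were the 5 of smallest p and the 3 of highest signal in complexes I, III and IV, all of complex II, those without overlap, Ndufa4, Ndufa4l2 and the restricted isoforms. Outside the members, Ndufv3, Gabpa and up to 3 genes of smallest p per list could be named, and the other genes of the text were named after their values were seen. Alternatives were other normalisations, filters, probe set choices and variance models, each array's interquartile range as a covariate, a replicate block, and fits without arrays.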

Additional observations from a re-analysis of the deposited data

Results flagged for a closer look

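Of 72 groups of 5 arrays tested for a sample far from the rest, 3 were flagged, and chance flags about 1 in 20 groups. For the mean level of the 34 complex I genes, control replicate 2 was far below the other controls, at 9.832. For Cox5b, the same mouse was far below the other controls, at 11.56. For Uqcrfs1, the Rieske protein of complex III, Dp1Yey replicate 2 was far below the other Dp1Yey mice, at 9.155.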

How the results depend on the processing

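With 10 arrays, 0 of 63 members were called higher and 0 lower in the main comparison and under each of the 20 alternatives, the replicate block (0 and 0) among them, with the lowest adjusted p between 0.0808 (without control replicate 3) and 0.332 (interquartile range as a covariate). The sample titles do not say whether the numbers shared by the groups pair the mice. The correlations of same-numbered deviations ran from -0.327 to 0.218 and those of other-numbered ones from -0.284 to 0.279, which cannot settle a pairing. With the block 8 members lay higher and 2 lay lower by unadjusted p under 0.05, against 7 and 2. That count of higher members ran from 2 to 10 when 1 array was left out (2 without Dp1Yey replicate 1, 4 without control replicate 2), and was 1 after quantile normalisation, 28 after median centring, which itself moved the median of all genes to 0.032, and 0 once the interquartile range was a covariate. Median centring gave medians of 0.114, 0.112, 0.0947 and 0.0886 for complexes I, II, III and IV. Quantile normalisation gave 0.0426, 0.0418, 0.0253 and 0.020, with 45 of 63 members above control at a median of 0.026. With the interquartile range as a covariate, complex I had 0.00878 and complex IV -0.0093, and without control replicates 1 and 2 complex IV had 0.00501. Leaving out 1 array gave medians of 0.0404 to 0.0736 for complex I, 0.0542 to 0.0791 for complex II, 0.0369 to 0.0730 for complex III and 0.0219 to 0.0487 for complex IV.

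Of the 32 named members, 6 changed sign somewhere, with differences in the main comparison from -0.052 (Cox7a1) to 0.024 (Cox8a). Uqcrc2 was 0.031 after median centring and ran from -0.037 to 0.00093 when 1 array was left out, above 0 without Dp1Yey replicate 4 (0.00093) or control replicate 3 (0.00052). Cox8a was -0.0024 after quantile normalisation, and Sdha was 0.0016 after median centring. Cox7a1 ran from -0.081 to 0.0047 when 1 array was left out, above 0 without control replicate 5. Cox7b2 was 0.02 after quantile normalisation, 0.038 after median centring, and ran from -0.016 to 6e-04, the last without control replicate 5. Ndufa4l2 was 0.0035, 0.0065, 0.052 and 0.017 after quantile normalisation, after median centring, with the covariate and without control replicates 1 and 2, and ran from -0.079 to 0.0075, the last without control replicate 1. Members named beyond these 32 changed sign too. Ndufa6 turned to -0.006 and Cox7a2 to -0.0093 with the covariate. Without control replicate 2, Cox4i1 turned to -0.020, Uqcrq to -0.015 and Ndufb11 to -0.026. The causes were not tested. The own-chromosome probe sets were chosen after seeing the data.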
